A study of Mus musculus with 12 samples.

Results

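The mouse miRNAs with numbers from 670 to 799 were followed through osteoclast formation in culture. They were picked by name alone from the entries of a miRNA array, with miR-674, miR-679, miR-758, miR-770, and the entries of opposite strands (names ending in a star) left out. This gave 65 of the 696 mouse miRNAs on the array. The cells came from the bone marrow of male C57BL/6 mice of 6 to 8 weeks, from which B220/CD45R+ and CD3+ cells, the B and T lymphocytes, had been depleted. Every culture received M-CSF, the growth factor on which osteoclast precursors depend, and RANKL, which directs these precursors into the osteoclast lineage, at 30 ng/ml each. The groups differed in time: 4 independent cultures were taken at day 1, 4 at day 3, and 4 at day 5, each read on 1 array in 1 color. No culture without RANKL was among the samples, so time with both cytokines was the only contrast.

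A miRNA guides a silencing complex to messenger RNAs that pair with its seed, bases 2 to 8 from its 5′ end, and thereby lowers protein output. Registry numbers follow the order of discovery, and many entries of this range came from the cloning of small RNAs in rodents, with no human miRNA of the same number. Some have a known origin outside the usual miRNA genes: miR-720 matches a transfer RNA, and miR-712 lies in a spacer of the ribosomal RNA precursor.

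The sequences below belong to members that were detected on all 4 arrays of at least 1 day and are described in detail further on. They are shown because members with different seeds and from different chromosomes fell together, and because the probe letters bear on the comparison of base composition that follows. For 56 of the 65 members a mature sequence in RefSeq (GRCm38.p6) was the complement of the longest probe on the array. Capitals mark the seed, and the first 8 are members that were lower at day 5 than at day 1.
miR-671-5p: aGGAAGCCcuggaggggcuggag
miR-680: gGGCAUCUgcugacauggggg
miR-681: cAGCCUCGcuggcaggcagcu
miR-705: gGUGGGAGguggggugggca
miR-706: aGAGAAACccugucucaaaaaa
miR-710: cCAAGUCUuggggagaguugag
miR-711: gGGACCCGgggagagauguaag
miR-721: cAGUGCAAuuaaaagggggaa
miR-700, which was higher at day 5: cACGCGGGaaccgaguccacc
miR-690, among the strongest signals: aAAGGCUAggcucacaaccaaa
miR-697, which varied between cultures of the same day: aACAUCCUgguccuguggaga
For miR-689, miR-709, miR-714, and miR-720 the longest probe of the array is given instead. It is complementary to the 3′ end of the RNA it captures, so it holds no seed.
miR-689 probe: ggaccccgccgag
miR-709 probe: tcctcctgcctc
miR-714 probe: gcgaccgaccggcc
miR-720 probe: tggaggccccag

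No seed was shared between any of the 11 mature sequences printed. The seed of miR-721 was shared with 6 other mouse mature sequences in RefSeq, among them miR-130a-3p, miR-130b-3p, and miR-301a-3p, and that of miR-705 with 3 others. Most of the printed sequences lay within a larger gene in the GRCm38.p6 table (whether in an exon or an intron was not analysed here). miR-671-5p (chr5:24592132-24592154, + strand) overlapped Chpf2, miR-681 (chr12:69763923-69763943, − strand) Cdkl1, and miR-690 (chr16:28599940-28599961, − strand) Fgf12. miR-697 (chr4:124731768-124731788, + strand) overlapped Sf3a3, which encodes a splicing factor, and miR-700 (chr4:135416561-135416581, − strand) Rcan3. miR-705 (chr6:85336341-85336360, − strand) overlapped Rab11fip5, and miR-706 (chr6:120034290-120034311, − strand) the kinase gene Wnk1. miR-711 (chr9:108969970-108969991, + strand) overlapped the collagen gene Col7a1, and miR-721 (chr5:136375777-136375797, − strand) the transcription factor gene Cux1. miR-710 (chr8:64514401-64514422, − strand) overlapped no other gene of the table. The sequence of miR-680 was listed at 3 places, on chromosomes 6, 12, and X, none inside another gene, so its signal cannot be given to 1 of them.

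The deposited scanner values were linear total signals per miRNA with the background subtracted, and a mark told whether the miRNA was detected. Over all 696 miRNAs, 211 to 276 were detected per array, except on replicate 4 of day 5, where 186 were. That array stood apart: the median signal of the members detected nowhere was -104.6 on it and lay between -40.0 and -3.33 on the others. Where it moved a result by much, the value without it is given as well. The arrays of days 1 and 5 shared slide 1, whereas day 3 was alone on slide 2, so for day 3 the time and the slide cannot be told apart. On slide 1 the arrays of day 1 lay in row 1 and those of day 5 in row 2. Time and row thus cannot be told apart between days 1 and 5. The erythroid markers miR-451 and miR-144 (2 of the 4 on the list were found on the array by name) had a summed normalized signal of 25490 to 38090 at day 1 and of 136 to 268 at day 5. The megakaryocytic marker miR-126-3p was at 578 to 893 at day 1 and at 8.76 to 33.7 at day 5, the 5 stromal markers summed to 437 to 666 and to 2600 to 3630 at these days, and the 3 lymphoid markers to 1840 to 2758 and 1626 to 2230. Neither miR-126-3p nor miR-144 was detected on any array of days 3 and 5, so the day 5 values of miR-126-3p are not a measured level. Among the lymphoid markers miR-150 was detected on all arrays of day 1 and on none of days 3 and 5. Among the stromal markers miR-145 was detected on at least 1 array of day 1 and on none of days 3 and 5. miR-143 was detected on none of days 1 and 3 and on at least 1 array of day 5. Of the 5 stromal markers, 2 were detected on all arrays of day 1 and 2 on all arrays of day 5. The part of these cell types in the results below was not tested. In such mixed cultures, fewer cells of a type and less RNA per cell cannot be told apart.

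Most members gave no signal above background. Of the 65, 39 were detected on no array and 26 on at least 1 (40.0%), beside 308 of the other 631 mouse miRNAs (48.8%). Between 18 and 23 members were detected per array at day 1, between 15 and 18 at day 3, and between 15 and 18 at day 5 on all arrays but replicate 4, where 10 were. Together they held 4.22% to 4.52% of the summed signal at day 1, 3.94% to 4.42% at day 3, and 3.00% to 3.83% at day 5. The highest array of day 5 thus lay below the lowest of day 1. The 7 members miR-680, miR-689, miR-690, miR-697, miR-705, miR-709, and miR-720 were detected on all 12 arrays.

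By kind of entry, detection was spread as follows. Of 17 entries whose number is also used for a human miRNA, 6 were detected on at least 1 array and 3 changed over time by the F test described below, beside 62.9% of all miRNAs tested. Of 42 entries with no human counterpart by number, 19 were detected and 11 changed, so both shares were near that of all miRNAs. The 5 entries of the X-linked cluster known from testis (miR-741 to miR-743b) were detected on none. Where both arms of a hairpin were on the array, at most 1 was seen. miR-671-5p was detected on 11 of 12 arrays, while the signal of miR-671-3p lay between -102.2 and 2.9 and was detected on 0. The 3p arm of miR-675, which is made from the imprinted H19 RNA, was detected on 2 arrays (replicate 4 of day 3 and of day 5), and its 5p arm on 0. Neither arm of miR-673, miR-693, miR-743b, or miR-764 was detected.

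**Figure D1:**
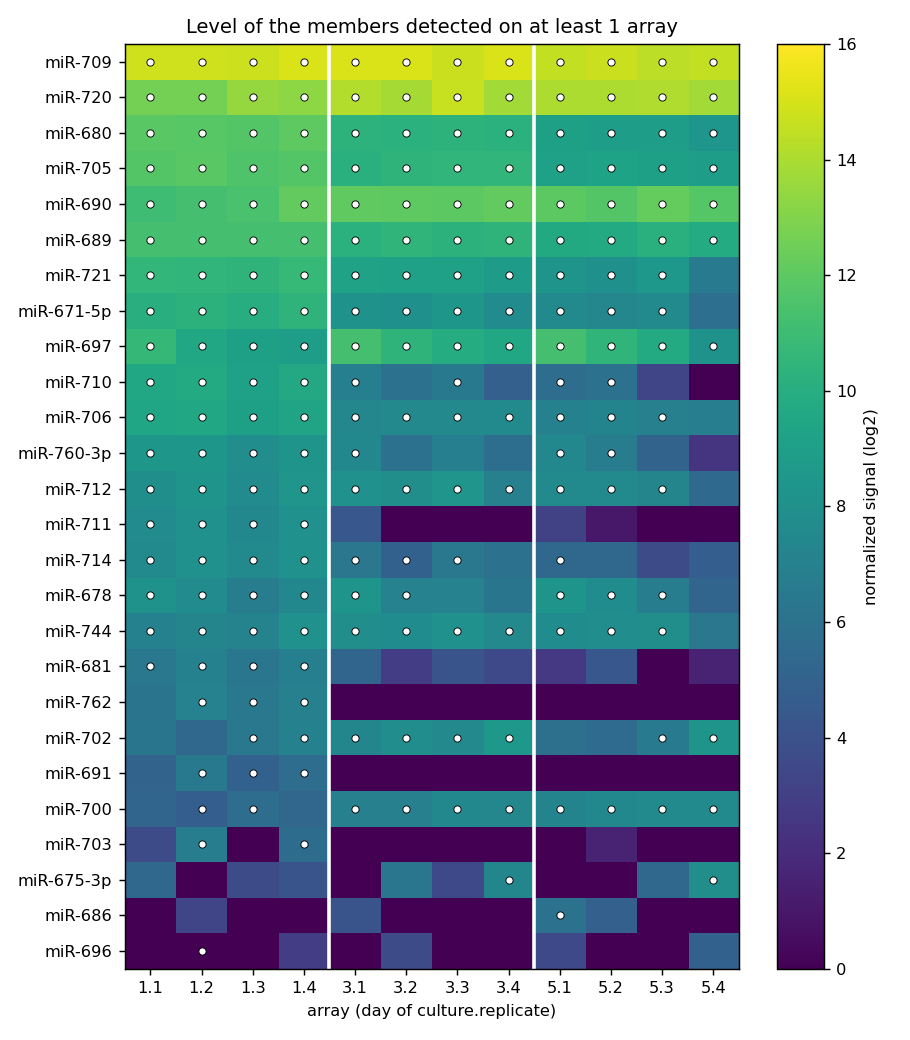
Normalized signal (log2, color scale) of the 26 members detected on at least 1 array, in rows ordered by their mean at day 1, on the 12 arrays in columns (day.replicate). A white dot marks detection on that array. The upper rows carry dots on all arrays, while miR-711, miR-681, miR-762, and miR-691 carry them at day 1 and at no later day.

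For the comparison of days, 334 miRNAs with detection on 1 array or more were used. Their total signals were quantile normalized, raised to 1 where lower, and converted to log2. Levels below are on this scale, on which a difference of 1 is 2-fold. The 3 days were compared in limma with Benjamini-Hochberg adjustment over all 334 miRNAs, and a miRNA was called changed at an adjusted p under 0.01. Of the 26 members detected, 15 changed over time by the F test (62.9% of all miRNAs tested). The members' share of changed entries was thus near that of the array as a whole. Their direction was uneven: of the 14 that also differed by more than 2-fold between any 2 days (46.7% of all miRNAs did), 12 had their largest difference downward (22.8% of all) and 2 upward (24.0% of all). Days 1 and 5 lay on the same slide but in different rows. Between them, 12 members were called lower (29.0% of all miRNAs) and 2 higher (31.7% of all). These were 14 calls together, against 60.8% of all. The median difference between day 5 and day 1 was -1.89 over the 26 members and 0.11 over the 334 miRNAs. Undetected values enter the members' median, and its size depended on the members and the processing. It was -1.89 over the 20 members detected on all arrays of a day, and -1.73 when only such miRNAs were normalized. It was -0.40 over the 7 detected on all 12 arrays, a filter that drops every member that lost detection. It was -2.88 without normalization and -0.44 with normexp background correction, whose offset of 50 shrinks differences between weak signals. These counts are no independent support for a fall, since 6 of the 26 entered the comparison through detection at day 1 alone.

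**Figure D2:**
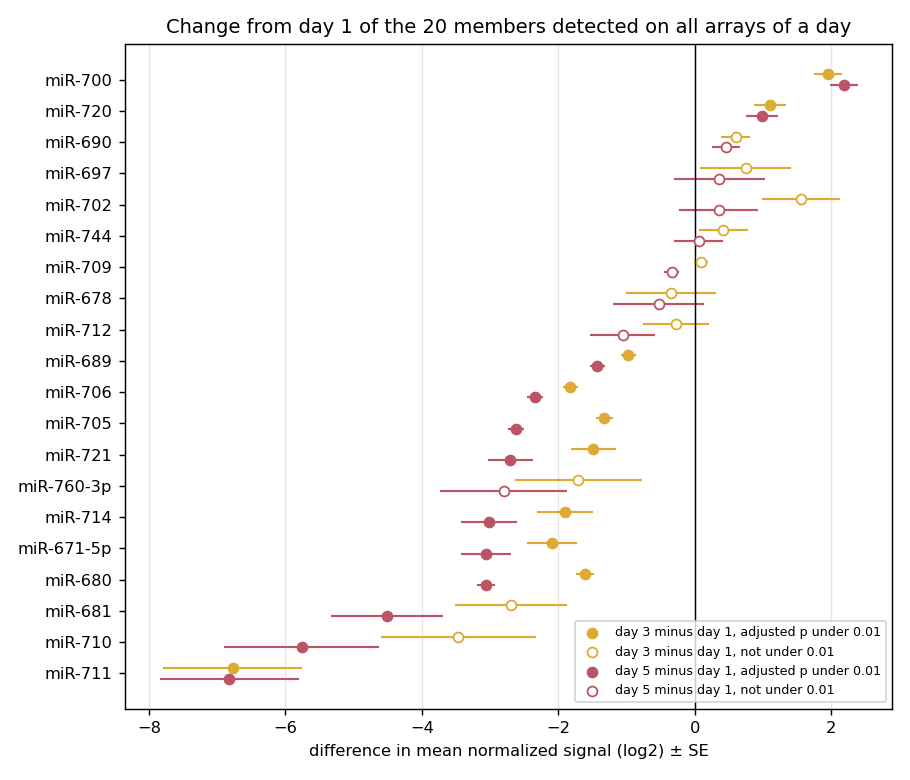
Difference in mean normalized signal (log2) from day 1 to day 3 and to day 5, with its standard error, for the 20 members detected on all 4 arrays of at least 1 day. Filled points passed the adjusted threshold. The points spread from -6.82 (miR-711) to 2.18 (miR-700) at day 5.

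The clearest falls without loss of detection were those of miR-680 and miR-705. miR-680 stood at 11.91, 11.83, 11.74, and 12.03 on the arrays of day 1, at 10.33, 10.19, 10.33, and 10.19 at day 3, and at 9.07, 8.88, 8.90, and 8.42 at day 5. The days did not overlap, and each step down was larger than the spread within a day (day 3 minus day 1 -1.62, day 5 minus day 3 -1.44, SE 0.13 each). In scanner units this was a fall from between 3759 and 6135 to between 351 and 642. miR-705 took nearly the same course. It read 11.71, 11.91, 11.57, and 11.71 at day 1, then 10.15, 10.39, 10.55, and 10.50, and finally 9.16, 9.29, 9.10, and 8.88. The difference between days 5 and 1 was -2.62 ± 0.12 (SE; limma, Benjamini-Hochberg adjusted p = 1.04e-08), and again no arrays of different days overlapped. miR-689 fell by less, from 11.25, 11.31, 11.31, and 11.31 through 10.19, 10.46, 10.25, and 10.39 to 9.70, 9.76, 10.15, and 9.86. Its difference from day 1 to day 5 was -1.43 ± 0.10 (SE; limma, Benjamini-Hochberg adjusted p = 4.83e-07).

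miR-706, whose sequence resembles the end of B1 repeats, made most of its fall early. It read 9.46, 9.51, 9.07, and 9.36 at day 1, 7.38, 7.52, 7.54, and 7.68 at day 3, and 7.01, 7.20, 6.96, and 6.85 at day 5. The step to day 3 was -1.82 and the one from day 3 to day 5 was -0.52 (SE 0.12 each). Its difference between days 5 and 1, -2.35, was -1.34 with normexp and -6.05 in the deposited values. miR-671-5p, which is known for a near-perfect site in the circular RNA Cdr1as, fell from 10.06, 10.25, 9.98, and 10.39 to 8.14, 8.03, 8.46, and 7.69 at day 3. At day 5 it read 7.61, 7.42, 7.58, and 5.84, the last on the array that stood apart, where it was not detected. Its difference between days 5 and 1 was -3.06 ± 0.36 (SE; limma, Benjamini-Hochberg adjusted p = 2.32e-05) and -2.68 without that array. It was -5.10 without normalization. Its F test no longer passed with no filter (limma adjusted p = 0.0149), without normalization (0.0224), or under either 75th percentile scaling (0.0229 and 0.0402). Its day 3 call was lost in the same 4 settings, and its day 5 call under 1 of them (75th percentile over all mouse miRNAs, -4.74, 0.0145). miR-721, with the seed of the miR-130 family, fell from 10.60, 10.55, 10.39, and 10.72 to 9.25, 9.13, 9.13, and 8.82, and then to 8.26, 8.03, 8.50, and 6.67. The difference between days 5 and 1 was -2.70 ± 0.33 and -2.33 without replicate 4 of day 5. Its step from day 3 to day 5 (-1.22) missed the threshold (limma adjusted p = 0.0156) and passed without that array (-0.84, 0.00141) and, at the same threshold, under 4 other settings, with sizes from -0.74 with normexp to -1.59 with 75th percentile scaling. Its day 3 call was lost with no filter (-1.49, 0.041) and with 75th percentile scaling over all mouse miRNAs (-1.63, 0.0129).

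The steepest falls ended near or below the limit of detection. miR-710 read 9.55, 9.76, 9.18, and 9.66 at day 1 and 6.90, 6.01, 6.50, and 4.88 at day 3. At day 5 it read 5.75, 6.01, 3.35, and 0, where 0 is the lower limit set for the log2 scale. It was detected on all 4 arrays of day 1 but on 2 of each later day. The size of its difference between days 5 and 1 (-5.76 ± 1.13) thus rests partly on undetected values. This difference was -1.92 with normexp and -4.11 without replicate 4 of day 5, and did not pass with no filter (-5.33; limma adjusted p = 0.0116). In the deposited values, which are blank where it was not detected, the difference was larger, at -9.41. Its F test over the 3 days passed (limma adjusted p = 0.00292) and did not without replicate 2 of day 1 (0.0108). It also did not pass with no filter (0.0270), or when signals were raised to 0.1 in place of 1 (0.018). miR-714 went from 7.62, 8.11, 7.58, and 8.08 to 6.36, 5.00, 6.39, and 6.05 and then to 5.38, 5.40, 3.74, and 4.77 (day 5 minus day 1 -3.02 ± 0.41 and -2.57 without that array). It was detected on 3 arrays of day 3 and 1 of day 5. Its difference was -0.79 with normexp and did not pass with no filter (-3.74, limma adjusted p = 0.0316). The F test of miR-714 no longer passed with no filter (limma adjusted p = 0.084), without normalization (0.01185), or under either 75th percentile scaling (0.0117 and 0.024). For neither member did the arrays of days 1 and 5 overlap.

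Detection was limited to day 1 for 6 members, miR-681, miR-691, miR-696, miR-703, miR-711, and miR-762. Their change can be given as a bound, which sets the day 1 mean against the lowest signal called detected on each later array, or against the measured value where that was higher. miR-711 read 7.74, 8.08, 7.50, and 8.12 at day 1, 4.33, 0, 0, and 0 at day 3, and 3.13, 1.02, 0, and 0 at day 5. It was at least 8.57-fold higher at day 1 than at day 5, and at least 2.58-fold with the 5th percentile of detected signals in place of the lowest. The fitted means were 7.86 and 1.04 (limma, Benjamini-Hochberg adjusted p = 0.00013). That p rests on undetected values at day 5 and is no test of the bound. miR-681 read 6.39, 7.01, 6.26, and 6.92 at day 1, 5.22, 2.90, 4.16, and 3.52 at day 3, and 2.63, 4.33, 0, and 1.56 at day 5. It was at least 3.69-fold higher at day 1 than at day 5, but at least 1.11-fold with the 5th percentile. The p of its fitted means (6.64 and 2.13; adjusted p = 0.000534 in limma) is likewise no test of the bound. miR-762 and miR-691, each detected on 3 arrays of day 1, were at least 3.68-fold and 1.75-fold higher there than at day 5, where their measured means were 0. With the 5th percentile the bound was 1.11-fold for miR-762 and could not be given for miR-691. Without replicate 4 of day 5 the fitted differences, which rest on undetected values, were -5.29 for miR-711, -3.07 for miR-681, -5.60 for miR-762, and -4.32 for miR-691. With normexp the difference was -1.07 for miR-711 and -0.55 for miR-681, and the call of miR-762 was lost (limma adjusted p = 0.0419), as was that of miR-681 with no filter (0.0379). For miR-696 and miR-703, detected on 1 and 2 arrays, the means of day 1 did not exceed the limit and no fold is given. The difference of miR-703 between days 5 and 1 missed the threshold (limma adjusted p = 0.0190) and passed without replicate 3 of day 1 (6.22e-05).

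Only miR-700 and miR-720 were called higher at day 5. miR-700 read 5.22, 4.77, 5.75, and 5.30 at day 1, 6.99, 6.99, 7.44, and 7.42 at day 3, and 7.20, 7.44, 7.56, and 7.56 at day 5. Its rise to day 3 (1.95) exceeded the later one (0.23), and the difference between days 5 and 1 was 2.18 ± 0.20 (SE; limma, Benjamini-Hochberg adjusted p = 3.30e-06). It was detected on 2 arrays of day 1 and on all later ones, and in scanner units it went from between 51.4 and 80.5 to between 136 and 232. The means of all 4 probes were higher at day 5, but the shortest was near background at both days (11.8 and 13.1). The size depended on the processing: 1.33 without normalization, 0.62 (under 2-fold) with normexp background correction, and 7.74 in the deposited values. Normexp was run with an offset of 50, which shrinks differences between weak signals. The deposited values of day 1 cover only the 2 arrays with detection. The day 3 call was lost without normalization (0.78; limma adjusted p = 0.0121). miR-720 read 12.65, 12.65, 13.49, and 13.28 at day 1, 14.18, 13.85, 14.63, and 13.80 at day 3, and 14.05, 14.05, 14.12, and 13.80 at day 5. The difference between days 5 and 1 was 0.98 ± 0.24 (SE; limma, Benjamini-Hochberg adjusted p = 0.00344), and both of its probes moved that way. That call was lost without replicate 2 of day 1 (0.86, limma adjusted p = 0.010), replicate 1 of day 5 (0.98, 0.0101), or replicate 3 of day 5 (0.95, 0.0120). It was also lost without normalization between arrays (0.79, 0.0328) and under either 75th percentile scaling (0.78, 0.024, and over all mouse miRNAs 1.09, 0.0134). The day 3 call was lost without normalization (0.44, 0.21). The F test was lost without normalization (0.076), with 75th percentile scaling over all mouse miRNAs (0.0125), and without replicate 2 of day 1 (0.0106).

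**Figure D3:**
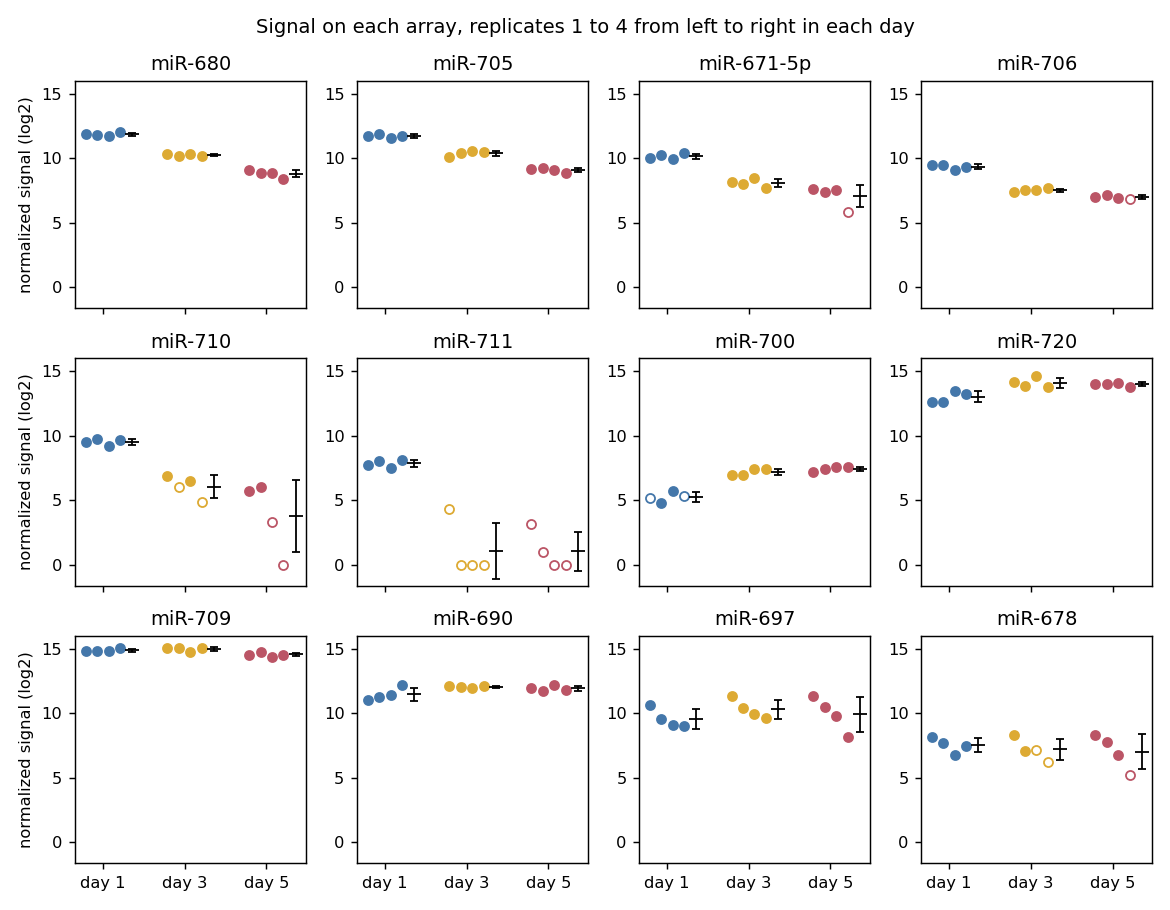
Normalized signal (log2) on each array for 12 members, with replicates 1 to 4 of each day side by side, open points where the member was not detected, and the mean ± SD of the 4 arrays as a black bar. miR-680 and miR-705 step down at each day, miR-700 steps up at day 3, and the arrays of miR-697 differ more within a day than between days.

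The strongest signal among the members was that of miR-709. It read 14.85, 14.85, 14.81, and 15.07 at day 1, 15.07, 15.07, 14.74, and 15.07 at day 3, and 14.55, 14.74, 14.39, and 14.55 at day 5. Its median rank among the 334 miRNAs was 14, 11, and 18 at days 1, 3, and 5. Day 5 lay below day 1 by 0.34 without overlap, which missed the threshold (limma, Benjamini-Hochberg adjusted p = 0.0155), while the F test over the 3 days passed it (0.00934). Without normalization the difference was -0.77 and passed (limma adjusted p = 0.00068). It also passed without replicate 3 of day 3 (0.00769) or replicate 2 of day 5 (0.00839), whereas the F test no longer passed when any array but replicate 3 of day 3 or replicate 2 of day 5 was left out. miR-690 read 11.06, 11.25, 11.38, and 12.16 at day 1, 12.09, 12.06, 11.95, and 12.13 at day 3, and 11.95, 11.74, 12.20, and 11.78 at day 5. Its difference between days 5 and 1 was 0.46 ± 0.21 (SE; limma adjusted p = 0.0757). Replicate 4 of day 1 lay within the range of the later days, and without it the difference was 0.72 (limma adjusted p = 0.000626). The size depended on the scaling of all 12 arrays. It was 0.09 without normalization (0.718), 0.08 with 75th percentile scaling on the miRNAs detected on all arrays (0.760), and 0.39 over all mouse miRNAs (0.223).

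miR-697 differed more between cultures of the same day than between days. It read 10.66, 9.53, 9.10, and 8.99 at day 1, 11.31, 10.43, 9.90, and 9.61 at day 3, and 11.31, 10.46, 9.80, and 8.14 at day 5. Replicate 1 was the highest and replicate 4 the lowest in each of the 3 days, a pattern found in none of the other 19 members detected on all arrays of a day. In scanner units replicate 1 stood at 2762, 2064, and 2918, and replicate 4 at 532, 540, and 311. The replicate number is also the place of the array in its row of the slide, and the local background was highest on the replicate 1 arrays of each day (95, 90, and 97, beside 72 to 82 elsewhere). Whether place or background bears on miR-697 was not tested. The means of the days differed by less than this spread (day 5 minus day 1 0.36 ± 0.67, limma adjusted p = 0.658). Averaged over the days, miR-678, miR-710, and miR-760-3p also fell step by step from replicate 1 (8.26, 7.40, and 7.81) to replicate 4 (6.31, 4.85, and 5.485). Replicate 4 of day 5, the array that stood apart, enters these means. Others went the other way, among them miR-702 (6.51 on replicate 1 and 7.96 on replicate 4). The part of place or background in these was not tested either.

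The other members detected on all arrays of a day were not called at day 5. miR-744, a conserved miRNA inside the kinase gene Map2k4, had means of 7.40, 7.82, and 7.46 at days 1, 3, and 5 (SD 0.48, 0.25, and 0.75). Its difference between days 5 and 1 was 0.05 and had the opposite sign, -0.67, without normalization. miR-678 had means of 7.54, 7.19, and 7.01, with an SD of 1.36 at day 5. miR-702 was highest at day 3 (6.27, 7.82, and 6.61), which did not pass the threshold (day 3 minus day 1 1.56 ± 0.58; limma adjusted p = 0.0361) but passed without replicate 4 of day 5 (1.45, adjusted p = 0.00618). miR-712, from the ribosomal spacer, had means of 8.09 and 7.03 at days 1 and 5, whose arrays did not overlap, and did not pass (difference -1.06; limma adjusted p = 0.0709). Without replicate 4 of day 5 its difference was -0.56. miR-760-3p stood at 8.26, 6.55, and 5.46, and its difference between days 5 and 1, -2.80 ± 0.93, missed the threshold (limma adjusted p = 0.0201) but passed without replicate 1 of day 5 (-3.49, adjusted p = 0.00642). Without replicate 4 of day 5 it was -1.68 and did not pass (0.0129). Over all 26 members, the arrays of days 1 and 5 did not overlap for 17, beside 62.6% of all miRNAs tested. For a member without overlap an exact permutation test between these days (two-sided, 4 arrays each) gives p = 0.0286, the smallest it can give.

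Several of the falls were present at day 3. Against day 1, 10 members were called lower at day 3 (25.1% of all miRNAs) and 2 higher (27.2% of all), 12 calls together against 52.4% of all. Without normalization 11 were called lower and 0 higher, beside 45.8% of all miRNAs called in either direction (limma, with an unadjusted p under 0.05 for 15 of 26 in either direction). miR-681 and miR-710 missed the threshold at day 3 (limma adjusted p = 0.0140 and 0.0205) and passed without replicate 4 of day 5, which entered through the shared spread and normalization, miR-681 also without replicate 2 or 3 of that day. miR-714 passed (0.00225) and did not without replicate 2 of day 1 (0.0361). Its day 3 call was also lost with no filter (limma adjusted p = 0.333), without normalization (0.0471), and under either 75th percentile scaling (0.129 and 0.162). From day 3 to day 5, 5 members were called lower, against 10.8% of all miRNAs, and 0 higher, against 14.7%, 5 calls together against 25.4%. These 5 were miR-680, miR-689, miR-705, miR-706, and miR-709. Only miR-680 and miR-705 stayed below the threshold when each array was left out in turn, and without normalization none of the 5 passed (limma, with an unadjusted p under 0.05 for 4 of the 26 members). Day 3 lay on its own slide in both comparisons.

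The direction was also read from the probes of each member. The total signal of a member is made up of its probe signals, so their agreement is no independent support for a call. By the mean scanner signal, every probe was lower at day 5 than at day 1 for 15 of the 20 members detected on all arrays of a day. All 10 that were called lower were among them. The share over all miRNAs was not counted, but without normalization the median difference between these days was -0.50 over all 334 tested. miR-710 and miR-711 each had 4 probes of different length, and all of them were lower, although the shortest probe of miR-711 was at background on both days. For miR-697 and miR-702, 1 probe of 4 was lower and 3 were higher, and both probes of miR-690 were higher. The scanner scale includes any difference in the total signal of the arrays, which was 1.47e+06 to 1.99e+06 at day 1 and 1.31e+06 to 1.57e+06 at day 5.

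The composition of the probes is given as a description, without a test. Cytosine made up a median of 50% of the longest probe in the 10 members called lower at day 5, 30.0% in the 2 called higher, 39.2% in the 8 not called, and 26.7% in the 39 members detected on no array. Over all 696 mouse miRNAs the median was 26.7%. A probe rich in cytosine captures an RNA rich in guanine, as the runs of g in miR-705, miR-680, and miR-711 above show, but miR-706 (10.5%) fell with few. Across the 20 members, cytosine content and the difference between days 5 and 1 had a Pearson r of -0.49 and a Spearman rho of -0.58. Across all 247 miRNAs detected on all arrays of a day the values were -0.40 and -0.47, so the relation was not particular to these members. miRNAs are not independent replicates, all points share the same 12 arrays, and the part of base composition in the changes was not tested.

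**Figure D4:**
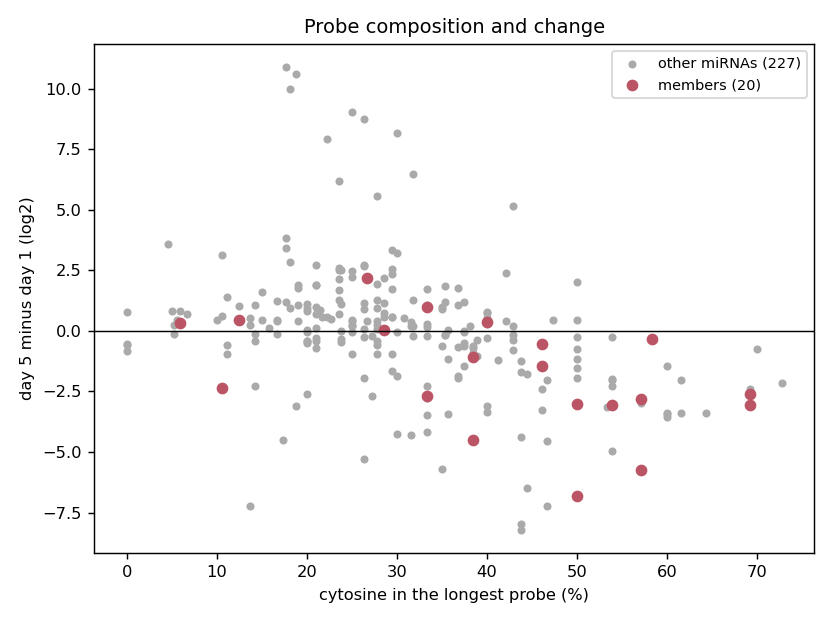
Cytosine content of the longest probe (%) against the difference between days 5 and 1 (log2) for the 247 miRNAs detected on all arrays of at least 1 day, with the 20 members in red and the other 227 in gray. Points toward the right of the plot lie mostly below 0 in both sets.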

How the data were processed

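RNA from 12 cultures, 4 per day, was hybridized to 12 single-color arrays with 14635 spots each, 715 of them controls. The authors' scanner files (Feature Extraction 9.5.3.1, per the file headers) hold linear intensity values from which the background had been subtracted but which had not been normalized. The deposited detection marks come from the same software. The authors' table of log2 values, deposited after quantile normalization in GeneSpring, has no value where a miRNA was not detected and served as an alternative.

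Total signals of miRNAs with detection on 1 array or more were quantile normalized, set to a floor of 1 (372 values, 9.28%), converted to log2, and fitted with lmFit and eBayes of limma 3.58.1 in R 4.3.3, with 1 mean per day and Benjamini-Hochberg adjustment. The fit was tested on simulated data. Python 3.11.15 with scipy 1.17.1 and matplotlib 3.10.9 made the tables and figures. The number of arrays limits the precision.

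The members and lists were chosen with earlier results of these data known. All members detected on all 4 arrays of a day are named; values of each array are given for those changed over 2-fold (the 12 largest), both arms of a hairpin, and the 5 highest means. The array values of miR-697 were added after they had been seen. The lists were numbers also used for a human miRNA, the testis cluster, miR-720, and cell type markers (erythroid, lymphoid, granulocytic, megakaryocytic, stromal). The granulocytic marker miR-223 was lower at the later days, at 80680 to 82740 at day 1 and at 59850 to 61320 at days 3 and 5. Its difference between days 5 and 1 was -0.43 on the log2 scale (limma adjusted p = 2.28e-05). The alternatives covered the filter, the scaling, the background correction, the signal, the floor, the test, the threshold, the replicate number as a block, days 1 and 5 alone, and each array left out. The normexp background correction added an offset of 50 to the spot signals. This shrinks log2 differences between weak signals, so smaller sizes with normexp are not due to the correction alone. The array of miR-762 with 5 saturated spots (replicate 4 of day 1) was kept.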

Additional observations from a re-analysis of the deposited data

Results flagged for a closer look

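Within 4 arrays of a day, a single array far from the other 3 (Dixon's criterion) was found in 6 of 60 groups of values. Independent normal values would give about 3. These values have ties from quantile normalization and a floor, so the 6 cannot be judged against that number. On replicate 4 of day 5, miR-671-5p was at 5.84 (the others at 7.42 to 7.61) and miR-744 at 6.33 (the others at 7.76 to 7.89). On replicate 1 of day 3, miR-711 was at 4.33 while the others were at the lower limit of 0, all 4 without detection. The other 3 were gaps under 0.4 on the log2 scale: miR-689 on replicate 1 of day 1 (11.25, the others at 11.31), miR-709 on replicate 4 of day 1 (15.07, the others at 14.81 to 14.85), and miR-709 on replicate 3 of day 3 (14.74, the others at 15.07). Their causes were not tested.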

How the results depend on the processing

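The counts of members called were 15 over time, 14 over 2-fold, 14 for day 5 against day 1, 12 for day 3 against day 1, and 5 for day 5 against day 3. Of all miRNAs tested, 62.9%, 46.7%, 60.8%, 52.4%, and 25.4% were called in these comparisons. With detection on all 12 arrays required, which left 7 members, the counts were 5, 4, 5, and 4 for the first 4 comparisons. Of the 148 miRNAs left in all, 77.0%, 39.2%, 73.65%, and 54.05% were called. The count over 2-fold was 9 with normexp and 9 in the deposited values. The deposited values also gave 9 for day 5 against day 1 with 16 members tested, beside 130 of 202 miRNAs in all. The count for day 5 against day 3 was 3 without the filter, 3 with scaling to the 75th percentile over all mouse miRNAs, 3 with the replicate block, and 0 without normalization. When arrays were left out singly, the counts ranged from 12 to 15, 12 to 15, 13 to 15, 11 to 15, and 2 to 5, in the same order. In the comparisons of 2 days, 184 to 204, 150 to 189, and 63 to 90 of all 316 to 334 miRNAs were called. For the differences of single members between days 5 and 1, 441 of 483 values under an alternative kept their direction and their side of the threshold, 10 lost the call, 15 gained it, and 17 changed sign. The cause was not tested.

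The sign of miR-697 turned with detection on all 12 arrays (-0.057), with 75th percentile scaling on the miRNAs seen everywhere (-0.046), and without normalization (-0.037). That of miR-702 turned under the same scaling (-0.092) and without normalization (-0.082), and that of miR-744 without the filter (-0.22), under both 75th percentiles (-0.68, and -0.37 over all mouse miRNAs), and without normalization (-0.67). The median difference of all miRNAs tested moved from 0.11 to -0.51, -0.20 (over all mouse miRNAs), and -0.50 under these 3 scalings, and to 0.37 in the deposited values. With arrays left out singly, the difference ranged from -0.97 to 0.080 for miR-678 (above 0 without replicate 4 of day 5), from -0.10 (without replicate 1 of day 5) to 0.96 for miR-697, from -0.20 (without replicate 4 of day 5) to 0.69 for miR-702, and from -0.089 (without replicate 3 of day 5) to 0.42 for miR-744.

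Replicate numbers were not taken as pairs, since not every same-numbered pair of arrays had deviations that correlated over 0.1. Over the 334 miRNAs 7 of 12 did (from -0.44 to 0.70, median 0.19, and -0.02 over 36 other pairs). Over the 148 miRNAs detected on all arrays 11 of 12 did (from 0.087 to 0.78, median 0.40, and -0.21 over the others), and in 19 of 24 comparisons of an array with another day it correlated best with its own number, a hint from the data and not from the design. With the replicate block, 16 members changed over time (miR-702 added), 15 differed between days 5 and 1 (miR-709 added), 13 between days 3 and 1, and 3 between days 5 and 3. Of all 334 miRNAs, 200 differed between days 5 and 1, 176 between days 3 and 1, and 74 between days 5 and 3.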
